A study of Mus musculus with 8 samples.

Results

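The 32 genes described here encode the regulators and enzymes of sterol and fatty acid synthesis, taken by symbol from the 55401 genes listed for each kidney. They comprised 5 regulators of the SREBP transcription factors, 8 enzymes of the mevalonate pathway, 10 enzymes that turn its product into cholesterol, 2 genes of sterol carriage and uptake, and 7 genes of fatty acid and lipid synthesis. The set was drawn up because *Insig1*, a sensor that restrains SREBP processing, was higher in SIK mutant than in control kidneys. The *Insig1* difference is therefore given as a description with no test, and every count below covers the 31 other members.

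Transcripts of the whole kidney were sequenced in 4 control and 4 SIK mutant mice. The genes of the salt-inducible kinases were floxed (flanked by loxP sites) in the controls, written SIK1f/f;SIK2f/f,SIK3f/f in the labels, with no Cre. Mutants carried Six2-Cre in addition, and for *Sik1* the study's text gives the mutant genotype as fl/+ where the labels give f/f. Six2-Cre recombines floxed alleles in nephron progenitors and their descendants, so stromal, endothelial and immune cells of these whole kidneys kept their SIK genes. The labels give no treatment, age, sex or litter, so p-values measure the spread between these mice.

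Animal cells adjust their own sterol supply through the SREBP proteins, which are held in the endoplasmic reticulum by SCAP and the INSIG proteins while sterols are plentiful. When sterols fall, SCAP carries SREBP to the Golgi, where proteases release the part that enters the nucleus and activates genes of cholesterol synthesis, mostly through SREBP-2, and of fatty acid synthesis, mostly through SREBP-1c. *Insig1* is itself an SREBP target, and the liver X receptors and insulin raise *Srebf1*.

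Depth was even, from 10179648 to 10925100 expected counts per kidney, and all 32 members passed the filter on low counts, the lowest count of a member in any kidney being 85. *Sik3* was at 58.6 to 66.5 CPM (counts scaled to a common library size by the TMM method of edgeR) in controls and at 33.7 to 43.1 CPM in mutants. *Sik2* was at 7.97 to 9.95 and 4.50 to 9.30 CPM, and *Sik1* at 36.8 to 43.1 and 43.4 to 54.1 CPM, with reads outside any deleted exon counted too. Controls 3 and 4 had almost no reads from the 4 Y-linked genes examined (0 and 0.175 CPM summed) and held *Xist* at 260 and 298 CPM, whereas the other 6 kidneys had Y-linked sums of 76.8 to 94.9 CPM. The first principal component, with 37.1% of the variance, set these 2 controls apart, so results are given for all 8 kidneys and for the 6 kidneys with Y-linked reads. In bulk tissue, fewer cells of a type and less RNA per cell cannot be told apart.

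*Insig1*, the gene on whose difference the set was built, was higher in all mutants, and *Insig2* was nearly level. *Insig1* (ENSMUSG00000045294.11, chr5:28071363-28078662, plus strand, GRCm38) stood at 36.9, 43.6, 34.9 and 36.7 CPM in controls 1 to 4 and at 51.4, 61.6, 62.2 and 58.8 CPM in mutants 1 to 4. Every mutant was above every control, and the log2 fold change was 0.62 ± 0.10 (SE), or 1.54-fold. *Insig2*, which encodes the second INSIG protein, was at 29.8, 26.9, 27.6 and 27.4 CPM in controls and at 28.8, 28.5, 29.1 and 27.5 CPM in mutants. These *Insig2* levels were nearly equal in all 8 kidneys, with a log2 fold change of 0.03 ± 0.07 (SE).

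Of the SREBP genes, *Srebf1* had the higher fold change, and whether it differed from that of *Srebf2* was not tested. *Srebf1*, which encodes SREBP-1a and SREBP-1c, was at 42.5, 48.1, 72.4 and 54.7 CPM in controls and at 72.6, 73.6, 91.0 and 60.3 CPM in mutants. Control 3 overlapped the mutants, and the log2 fold change was 0.45 ± 0.18 (SE), with an unadjusted edgeR p of 0.0291 that did not pass adjustment over all 14326 genes tested (edgeR quasi-likelihood test, Benjamini-Hochberg FDR = 0.742). *Srebf2*, the gene of SREBP-2, was at 87.3, 106, 85.3 and 123 CPM in controls and at 103, 109, 110.1 and 92.7 CPM in mutants. *Scap* was at 92.1, 89.3, 68.3 and 71.7 CPM in controls and at 78.6, 91.1, 92.8 and 85.0 CPM in mutants. Both overlapped widely between the genotypes, with log2 fold changes of 0.04 ± 0.13 for *Srebf2* and 0.11 ± 0.12 for *Scap* (SE), and the latter was -0.052 in the 6 kidneys with Y-linked reads.

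**Figure D1:**
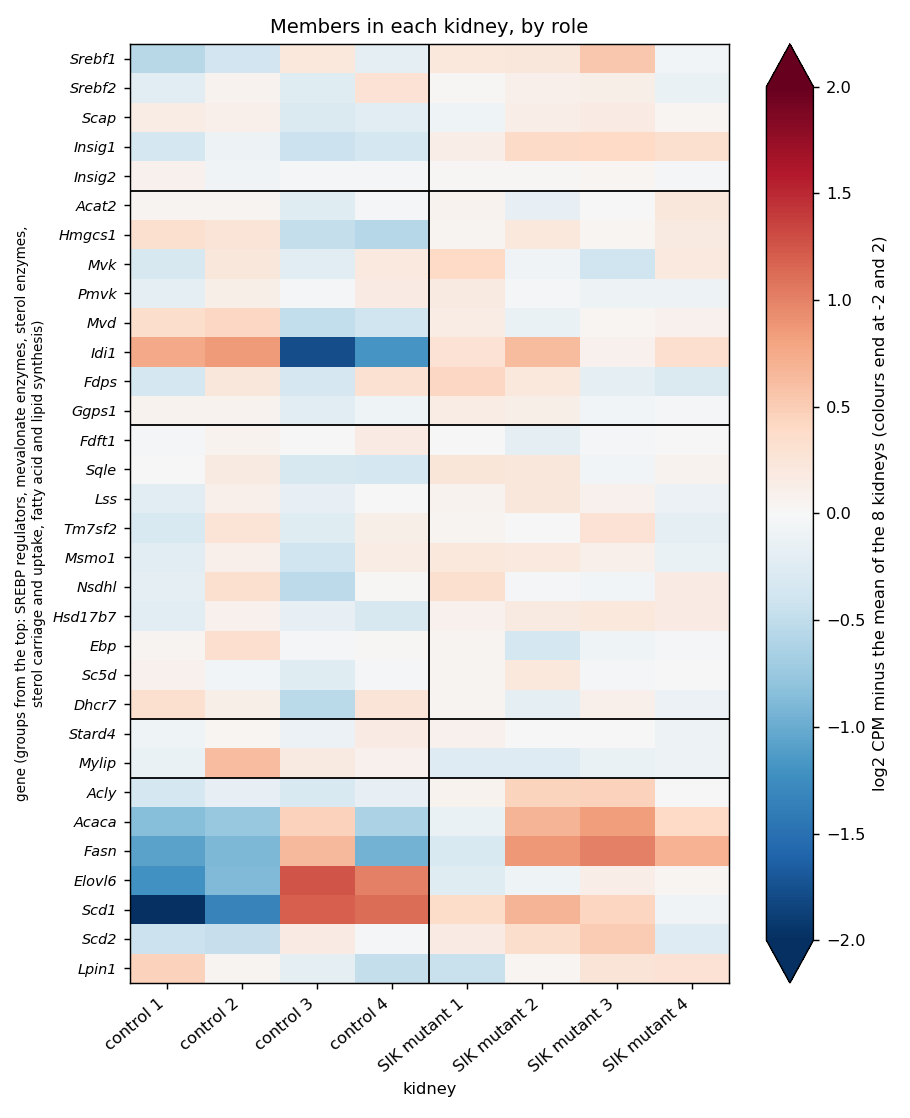
Heat map of the 32 members (rows, grouped by role) in the 8 kidneys (columns); colour is log2 CPM minus the gene's mean over the 8 kidneys. The *Scd1*, *Elovl6*, *Idi1*, *Hmgcs1* and *Mvd* rows separate controls 3 and 4 from controls 1 and 2, and the *Insig1* row separates mutants from controls.

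Promoter sequence is shown for *Insig1* and for genes that stand for the 2 arms of the set, the mevalonate arm (*Hmgcs1* and *Mvd*) and the fatty acid arm (*Acly* and *Fasn*). RefSeq windows (GRCm38.p6) were at hand for 26 members, in 34 windows because some genes have several starts. *Fdps*, *Fdft1*, *Sqle*, *Stard4*, *Scd1* and *Scd2* had none. Each line gives up to 250 bases before the RefSeq start, 5′ to 3′ on the strand of the gene, with matches to the motifs described next in capitals. Bases that GENCODE places inside the gene were left off, which shortened *Insig1* to 201 bases. The windows are chr5:28071162-28071362 (plus strand) for *Insig1*, chr13:119690101-119690350 (plus) for *Hmgcs1*, chr8:122443423-122443672 (minus) for *Mvd*, chr11:100528001-100528250 (minus) for *Acly* and chr11:120824548-120824797 (minus) for *Fasn*.
Insig1: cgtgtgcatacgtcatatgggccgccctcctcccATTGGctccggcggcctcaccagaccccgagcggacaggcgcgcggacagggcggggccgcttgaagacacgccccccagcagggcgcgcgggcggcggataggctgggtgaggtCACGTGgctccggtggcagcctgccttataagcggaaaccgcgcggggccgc
Hmgcs1: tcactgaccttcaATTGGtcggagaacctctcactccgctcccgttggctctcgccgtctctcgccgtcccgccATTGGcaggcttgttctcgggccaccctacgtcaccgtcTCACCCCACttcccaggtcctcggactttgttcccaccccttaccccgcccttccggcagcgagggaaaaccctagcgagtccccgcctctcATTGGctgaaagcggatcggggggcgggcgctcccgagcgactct
Mvd: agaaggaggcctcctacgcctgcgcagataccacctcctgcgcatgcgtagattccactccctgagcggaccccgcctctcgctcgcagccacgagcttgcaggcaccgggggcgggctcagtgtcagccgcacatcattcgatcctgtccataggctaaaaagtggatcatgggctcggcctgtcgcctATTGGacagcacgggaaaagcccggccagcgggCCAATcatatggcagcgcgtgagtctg
Acly: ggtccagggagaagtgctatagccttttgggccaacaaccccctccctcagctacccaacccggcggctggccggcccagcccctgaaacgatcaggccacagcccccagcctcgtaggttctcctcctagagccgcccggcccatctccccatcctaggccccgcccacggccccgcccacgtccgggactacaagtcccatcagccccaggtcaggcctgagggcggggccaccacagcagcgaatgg
Fasn: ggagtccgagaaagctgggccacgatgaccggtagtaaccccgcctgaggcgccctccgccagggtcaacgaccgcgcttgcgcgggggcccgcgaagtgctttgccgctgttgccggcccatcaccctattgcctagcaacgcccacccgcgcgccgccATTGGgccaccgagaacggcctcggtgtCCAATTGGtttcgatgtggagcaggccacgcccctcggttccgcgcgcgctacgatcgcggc

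Motifs were searched on both strands of the full 250 bases. A sterol response element-like motif, TCACNCCAC, was in 1 of 34 member windows, that of *Hmgcs1*, and in 1.05% of all 32851 windows. CCAAT, the box bound by the SREBP partner NF-Y, was in 21 of 34 member windows and in 33.8% of all windows. The *Fasn* window holds it 3 times, the last pair overlapping on opposite strands, and the *Acly* window holds none of the motifs searched. The E box CACGTG was in 5 of 34 member windows, *Insig1* among them, and in 6.02% of all windows. The full cAMP response element TGACGTCA, bound by CREB, was in 0 of 34 member windows and in 1.55% of all windows. For this and the other motifs, the sterol response element-like one included, an absence says only that these letters are not in these stretches.

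Across the 31 members other than *Insig1*, no gene passed an FDR of 0.05 in edgeR, as was so for 0.0% of the 14326 genes tested. By DESeq2, 1 member passed, *Acly* (adjusted p = 0.0329), where 0.468% of all genes passed. At an unadjusted edgeR p under 0.05 there were 6 members, against 6.36% of all genes, and 2 to 8 when each kidney was left out in turn (2 without mutant 2). Of these, 5 were higher in mutants (*Srebf1*, *Hsd17b7*, *Acly*, *Acaca* and *Fasn*; 2.76% of all genes were higher) and 1 was lower (*Mylip*; 3.59% of all genes were lower). The groups did not overlap for 1 member, *Acly*, against 4.03% of all genes. The median log2 fold change of the 31 members was 0.08, beside -0.0038 over all genes, and 24 of the 31 had a positive sign. In the 6 kidneys with Y-linked reads 20 of the 31 were positive. The share of each sign over all genes was not computed, so this and the later counts of signs cannot be set beside it.

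The enzymes of the mevalonate pathway, which builds isoprenoids from acetyl-CoA, had smaller fold changes than *Insig1*. None of the 8 reached an unadjusted edgeR p under 0.05, and their median log2 fold change was 0.08. *Hmgcs1*, the cytosolic HMG-CoA synthase, was at 457.5, 440.4, 264 and 247 CPM in controls and at 381, 424, 376 and 414 CPM in mutants. The mutants lay between the 2 pairs of controls, with a log2 fold change of 0.18 ± 0.20 (SE). *Mvd*, which makes isopentenyl pyrophosphate, was at 70.8, 73.9, 39.6 and 42.2 CPM in controls and at 61.6, 51.0, 57.1 and 59.1 CPM in mutants. *Idi1*, the isomerase that acts on that product, was at 163, 174, 27.9 and 42.1 CPM in controls and at 117, 149, 101 and 121 CPM in mutants. Both repeated the *Hmgcs1* order, with controls 1 and 2 above all mutants and controls 3 and 4 below them. Their log2 fold changes over 8 kidneys were 0.02 ± 0.20 for *Mvd* and 0.27 ± 0.51 for *Idi1* (SE). For *Acat2*, *Mvk*, *Pmvk*, *Fdps* and *Ggps1* the values ran from -0.03 to 0.09, and none of these 5 separated the genotypes.

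Of the 10 enzymes from squalene to cholesterol, 1 was at an unadjusted edgeR p under 0.05. *Hsd17b7*, a sterol ketoreductase, was at 15.8, 19.8, 16.5 and 14.8 CPM in controls and at 19.7, 20.96, 21.4 and 20.9 CPM in mutants. Control 2 reached above the lowest mutant, and the log2 fold change was 0.31 ± 0.11 (SE; edgeR FDR = 0.702). *Ebp*, the sterol isomerase, was at 85.7, 104, 81.2 and 83.5 CPM in controls and at 85.5, 64.5, 77.3 and 80.4 CPM in mutants, a log2 fold change of -0.20 ± 0.11 (SE). *Dhcr7*, which catalyses the last step of one branch, was at 37.6, 32.4, 20.5 and 35.7 CPM in controls and at 31.0, 26.0, 32.3 and 27.5 CPM in mutants, a log2 fold change of -0.11 ± 0.17 (SE). Both pairs of groups overlapped. The squalene-forming and squalene-oxidising enzymes *Fdft1* and *Sqle* had log2 fold changes of -0.10 and 0.23, and *Lss*, *Tm7sf2*, *Msmo1*, *Nsdhl* and *Sc5d* ran from 0.07 to 0.18. The 18 mevalonate and sterol enzymes together had a median log2 fold change of 0.08, with 14 positive and 4 negative.

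Of the genes of sterol carriage and uptake, *Stard4*, a cytosolic cholesterol carrier, had a log2 fold change of 0.00 ± 0.09 (SE). *Mylip*, a liver X receptor target whose ubiquitin ligase directs lipoprotein receptors to degradation, was at 33.2, 55.7, 41.0 and 38.5 CPM in controls and at 30.4, 30.5, 33.2 and 34.0 CPM in mutants. The mutants were tightly grouped and reached the lowest control. The log2 fold change was -0.40 ± 0.15 (SE; edgeR FDR = 0.715).

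The 7 fatty acid genes had a median log2 fold change of 0.39, beside 0.08 for the 18 mevalonate and sterol enzymes, a difference that was not tested. With the white adipocyte score described below as a covariate, the medians were 0.29 and 0.27. In the 6 kidneys with Y-linked reads, without that covariate, they were 1.02 and 0.03. Among controls the score was higher in both kidneys without Y-linked reads, so the covariate medians are not free of that split. *Acly* (ENSMUSG00000020917.17, chr11:100476353-100528000, minus strand), which supplies cytosolic acetyl-CoA to both arms, was at 121, 139, 126 and 139 CPM in controls and at 162, 211, 214 and 157 CPM in mutants. Every mutant was above every control, a log2 fold change of 0.50 ± 0.12 (SE; edgeR FDR = 0.456). *Acaca*, acetyl-CoA carboxylase, was at 20.9, 22.3, 51.7 and 24.3 CPM in controls and at 34.3, 60.0, 66.9 and 49.7 CPM in mutants. *Fasn*, fatty acid synthase, was at 86.9, 97.3, 285 and 94.2 CPM in controls and at 147, 329.8, 365 and 296 CPM in mutants. In both, control 3 lay among the mutants while the other 3 controls lay below all of them. The log2 fold changes were 0.82 ± 0.31 for *Acaca* (SE; edgeR FDR = 0.718) and 1.01 ± 0.42 for *Fasn* (SE; edgeR FDR = 0.768). Without control 3 they were 1.23 ± 0.21 and 1.61 ± 0.28 (SE).

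The desaturases and the elongase did not separate the genotypes over 8 kidneys. *Scd1*, stearoyl-CoA desaturase, was at 86.4, 180.0, 1047 and 992 CPM in controls and at 591, 733, 616 and 433 CPM in mutants. *Elovl6*, which elongates palmitate, was at 15.3, 19.4, 85.3 and 71.9 CPM in controls and at 30.2, 33.5, 39.4 and 36.8 CPM in mutants. For both, controls 1 and 2 were below all mutants and controls 3 and 4 above them, and the log2 fold changes were 0.04 ± 0.66 and -0.46 ± 0.49 (SE). *Scd2* was at 93.7, 91.4, 141 and 124 CPM in controls and at 141, 160.4, 180.1 and 106 CPM in mutants, with overlap and a log2 fold change of 0.39 ± 0.19 (SE). *Lpin1*, a phosphatidate phosphatase, had a log2 fold change of 0.06 ± 0.21 (SE).

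**Figure D2:**
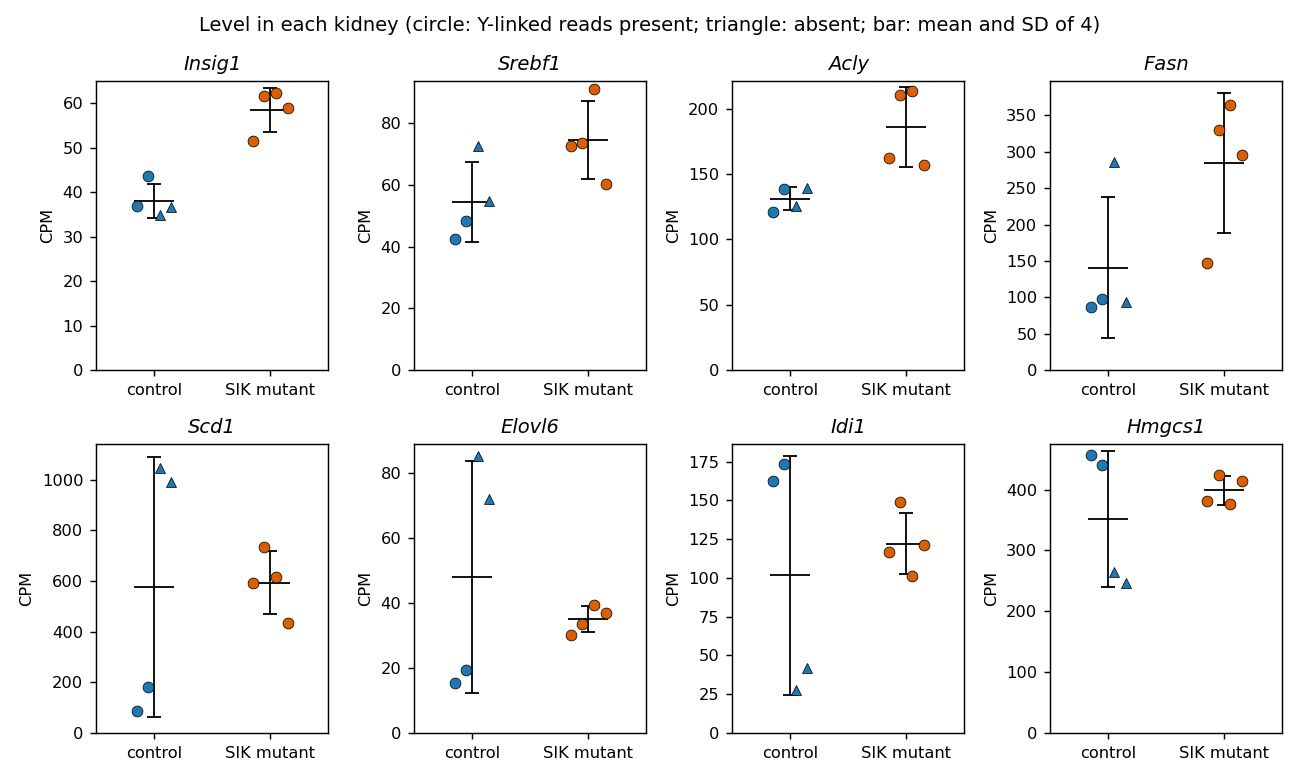
CPM of 8 members in each kidney; blue points are controls and orange points SIK mutants, triangles mark the 2 controls without Y-linked reads, and bars are the mean and SD of 4 kidneys. *Insig1* and *Acly* of all mutants lie above all controls, whereas *Scd1*, *Elovl6*, *Idi1* and *Hmgcs1* of the mutants lie between the 2 pairs of controls.

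The contrast between kidneys without and with Y-linked reads was fitted as a factor beside genotype, added after the data were seen. It was not the difference on which the set was built, though the members were chosen with earlier results of these data known. This contrast rests on 2 kidneys, both controls. Their summed white adipocyte markers, described below, were 252 and 83.4 CPM, against 40.7 and 47.7 CPM in controls 1 and 2. Y-linked reads and adipocyte transcripts therefore cannot be told apart in this contrast. In that fit 5 of the 31 members passed an edgeR FDR of 0.05, against 8.26% of all genes, 2 of them higher (3.18% of all genes) and 3 lower (5.09% of all genes). The 3 mevalonate genes named above were lower in kidneys without Y-linked reads, by a log2 fold change of -2.26 ± 0.21 for *Idi1* (SE; edgeR FDR = 0.000467), -0.82 ± 0.11 for *Mvd* (FDR = 0.00309) and -0.81 ± 0.11 for *Hmgcs1* (FDR = 0.00246). *Scd1* and *Elovl6* were higher, by 2.94 ± 0.33 (SE; edgeR FDR = 0.00119) and 2.18 ± 0.17 (FDR = 0.000138). None of the 10 member enzymes from squalene to cholesterol passed, and 9 of them had a negative sign. In the same fit no member passed the FDR for genotype (0.00698% of all genes did), and 11 had an unadjusted edgeR p under 0.05, against 12.3% of all genes. *Insig1* had a log2 fold change of -0.17 ± 0.13 (SE) in this contrast.

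In the 2 controls and 4 mutants that had Y-linked reads, no member passed an edgeR FDR of 0.05 (0.143% of all genes did), and 10 had an unadjusted edgeR p under 0.05, against 11.1% of all genes. Of the 10, 7 were higher (6.4% of all genes were) and 3 were lower (4.74% of all genes were). The groups did not overlap for 12 members, against 21.8% of all genes, with 7 higher (10.3% of all genes) and 5 lower (11.5% of all genes). The 7 fatty acid genes had a median log2 fold change of 1.02 and 6 of them were without overlap, all higher in mutants. *Scd1* had 2.16 ± 0.32, *Fasn* 1.63 ± 0.32, *Acaca* 1.295 ± 0.25 and *Elovl6* 1.02 ± 0.15 (SE), with edgeR FDRs from 0.0524 to 0.129. *Scd2*, *Acly* and *Srebf1* had 0.68 ± 0.19, 0.53 ± 0.15 and 0.72 ± 0.16 (SE; edgeR FDRs from 0.194 to 0.293). The 18 mevalonate and sterol enzymes had a median of 0.03, with 10 positive and 8 negative, and those without overlap were the 5 genes *Hmgcs1*, *Mvd*, *Idi1*, *Ebp* and *Dhcr7*, all lower in mutants. Their log2 fold changes ran from -0.16 for *Hmgcs1* to -0.45 for *Idi1*. *Insig1* was 0.55 ± 0.12 (SE) in these 6 kidneys, close to its value in all 8.

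**Figure D3:**
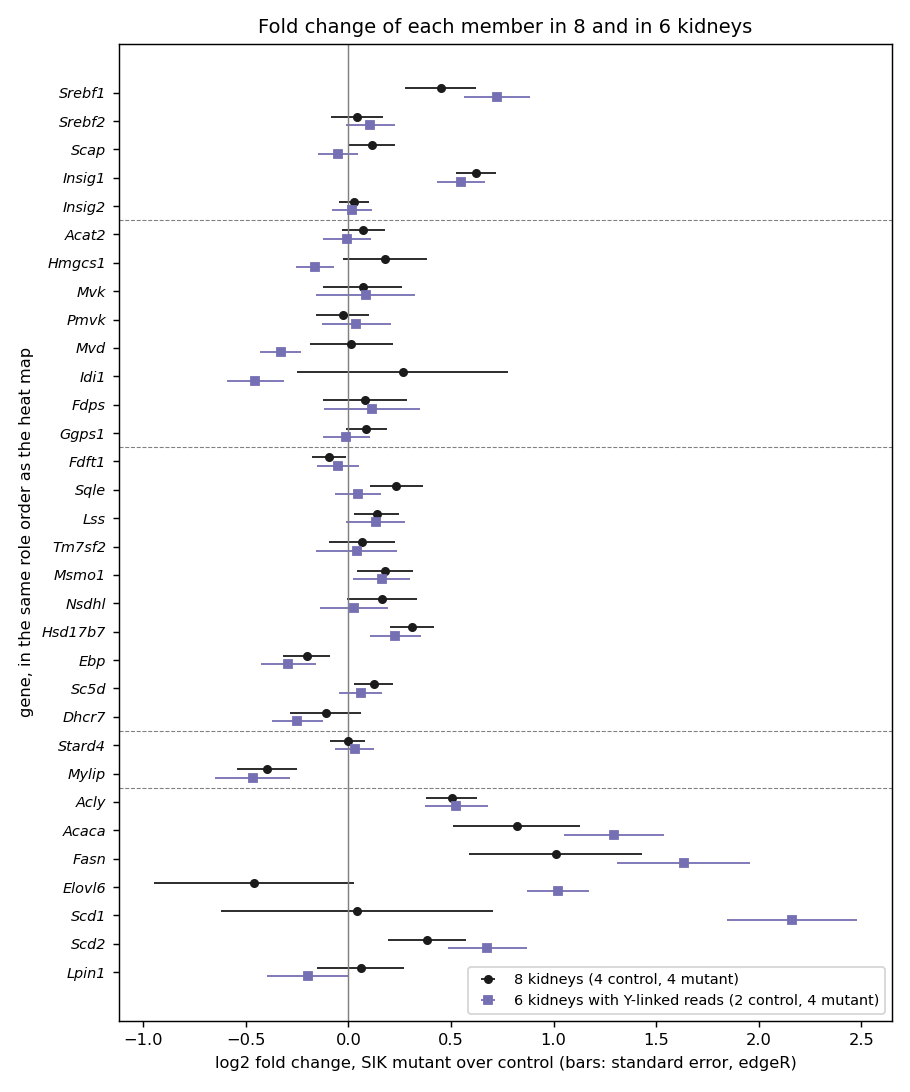
Log2 fold change of SIK mutant over control for each member with its edgeR standard error, in all 8 kidneys (black circles) and in the 6 kidneys with Y-linked reads (purple squares). The fatty acid genes from *Acaca* to *Scd2* move to the right in the 6 kidneys, *Idi1*, *Mvd* and *Hmgcs1* cross to the left of 0, and *Insig1* and *Acly* stay in place.

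Adipocyte transcripts also differed between the kidneys, and *Acaca* and *Fasn* were high in the control where these transcripts were highest. The summed level of 8 white adipocyte markers (*Adipoq*, *Cfd*, *Plin1*, *Cidec*, *Lep*, *Retn*, *Fabp4* and *Lipe*) was 40.7, 47.7, 252 and 83.4 CPM in controls and 231, 194, 223 and 302 CPM in mutants, with all 8 markers higher on average in mutants. *Adipoq* was at 0.0 CPM in control 1 and 18.8 CPM in control 3. The 3 brown adipocyte markers summed to 0.0 to 109 CPM in controls and 11.6 to 67.2 CPM in mutants. Control 3, the control with high adipocyte sums, was also the control in which *Acaca* and *Fasn* reached the mutant range. The match among controls rests on that kidney, as control 4, with the next highest sum, had both genes near controls 1 and 2. Among mutants, mutant 2 had the lowest white adipocyte sum but higher *Acaca* and *Fasn* than mutants 1 and 4. With the white adipocyte score as a covariate, the log2 fold changes became 0.29 for *Acaca*, 0.36 for *Fasn* and 0.13 for *Srebf1*. In that fit 2 members passed an edgeR FDR of 0.05 (1.87% of all genes did), *Idi1* higher at 2.14 and *Elovl6* lower at -1.53, and 10 had an unadjusted edgeR p under 0.05, against 16.8% of all genes. Both had the opposite sign in the 6 kidneys with Y-linked reads, at -0.45 for *Idi1* and 1.02 for *Elovl6*. Among controls the score was higher in both kidneys without Y-linked reads. Adipocyte score and Y-linked reads therefore cannot be told apart among the controls of this fit. The covariate also took up 47.8% of the genotype term, and within the 6 kidneys genotype and adipocyte transcripts cannot be told apart, since the lowest mutant sum was above both controls.

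*Insig1* and *Acly* behaved otherwise among the controls. Control 3 held the lowest *Insig1* of all 8 kidneys, 34.9 CPM, and an *Acly* of 126 CPM, inside the range of the other controls. With the adipocyte covariate the log2 fold change was 0.72 ± 0.14 for *Insig1* and 0.52 ± 0.17 for *Acly* (SE). *Scd1* was at 992 CPM in control 4, whose marker sum was 83.4 CPM, and at 433 CPM in mutant 4, whose sum was 302 CPM. The part of adipocyte transcripts in the values of any member, *Insig1* and *Acly* included, was not tested. The covariate fit cannot decide it, as the adipocyte score took up 47.8% of the genotype term. Of 7 adrenal cortex markers, a steroid-making tissue next to the kidney, 5 were under 1 CPM in all 8 kidneys and the sum was 2.68 to 5.43 CPM. The 9 tubule and podocyte markers summed to 11133 to 12603 CPM in controls and 10286 to 11116 CPM in mutants, and 5 immune markers to 11.0 to 18.7 and 15.1 to 19.9 CPM.

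**Figure D4:**
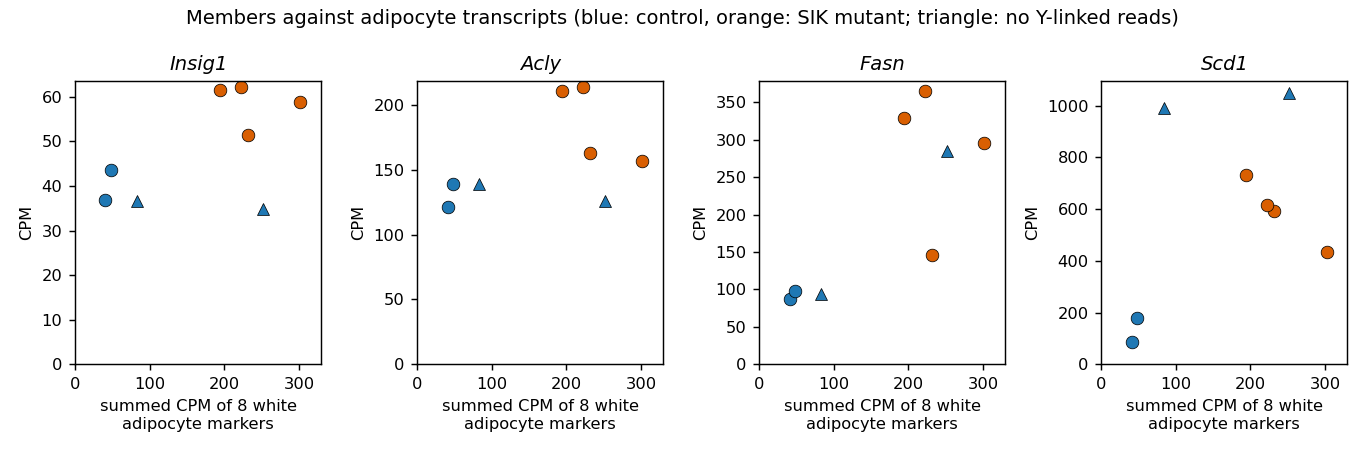
CPM of 4 members against the summed CPM of 8 white adipocyte markers, a point for each kidney; blue is control, orange is SIK mutant and triangles have no Y-linked reads. Control 3, the triangle at 252 CPM on the horizontal axis, lies with the mutants for *Fasn* and with the other controls for *Insig1* and *Acly*.

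Of 37 further genes of the same pathways, in 5 lists, none passed an edgeR FDR of 0.05 in the fit of all 8 kidneys. In that fit 5 had an unadjusted edgeR p under 0.05, 3 higher and 2 lower, where 6.36% of all genes did. DESeq2 called 1 of the 37, which was lower, against 0.468% of all genes. *Cyp51*, the lanosterol demethylase, was at 237, 238, 222 and 249 CPM in controls and at 218, 202, 182 and 201 CPM in mutants. Every mutant was below every control, with a log2 fold change of -0.24 ± 0.09 (SE; edgeR FDR = 0.717). *Tmem97*, a sterol-responsive membrane protein, had 0.28 ± 0.12 (SE; edgeR FDR = 0.768). *Mid1ip1*, which promotes polymerisation of acetyl-CoA carboxylase, had 0.36 ± 0.15 (SE; edgeR FDR = 0.768). None of the 6 genes of SREBP processing, the proteases *Mbtps1* and *Mbtps2* among them, reached an unadjusted edgeR p under 0.05 over 8 kidneys. Nor did any of the 6 liver X receptor genes and targets. In the 6 kidneys with Y-linked reads, 1 of the 37 passed the edgeR FDR, higher in mutants (0.143% of all genes passed). There 10 had an unadjusted edgeR p under 0.05, 7 higher and 3 lower, against 11.1% of all genes. With the adipocyte covariate 1 of the 37 passed the FDR, lower in mutants (1.87% of all genes passed).

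In the contrast of kidneys without and with Y-linked reads, the pathway lists had genes that differed, with 6 of the 37 past an edgeR FDR of 0.05, against 8.26% of all genes. The limit from adipocyte transcripts given for this contrast applies here too. *Thrsp*, a lipogenic protein found mainly in adipose tissue and liver, was higher in kidneys without Y-linked reads by 3.82 ± 0.91 (log2 scale, SE; FDR = 0.0332). *Me1*, *Acss2*, *Smpdl3a* and *Mlxipl* were lower by log2 fold changes of -1.19, -0.85, -0.77 and -0.69 (edgeR FDRs from 0.00368 to 0.0203). *Acss2* makes acetyl-CoA from acetate and *Me1* makes NADPH for lipid synthesis.

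On the length-corrected TPM scale of the deposited files the most abundant members in controls were *Scd1*, at 134 ± 124 TPM, and *Hmgcs1*, at 112 ± 25.3 TPM (SD, n = 4). *Insig1* stood at 15.9 ± 1.26 TPM in controls and 26.9 ± 3.39 TPM in mutants (SD, n = 4), and *Insig2* at 14.7 ± 1.66 and 17.3 ± 1.60 TPM. The control SD of *Scd1* was close to its mean, so *Scd1* and *Hmgcs1* did not differ in level beyond their spread. *Acaca* had the lowest control level, 3.65 ± 2.10 TPM. In annotation, 16 of the 32 members overlap another gene, 11 of them one on the opposite strand, and the use of strand in counting was not stated. The posterior SD that RSEM attached to a member's count was at most 3.03% of that count, and it was 0 in every kidney for 25 members.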

How the data were processed

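RNA-Seq of whole kidneys was sequenced by the authors on BGISEQ500. Per the submitters' processing notes the tools were FastQC, STAR 2.7.2b, RSEM 1.3.0 and DESeq2, with build mm10; the strand setting and annotation release are not given in the sources used here. The authors deposited RSEM expected counts, which are unnormalised estimates per gene, and the deposited TPM are length-scaled abundances, and the posterior SD of each count is RSEM's own. Symbols came from GENCODE M21, which held 55141 of 55401 gene IDs.

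Counts were rounded and tested with edgeR 4.0.16 (quasi-likelihood, TMM, filterByExpr, 14326 genes, Benjamini-Hochberg) in R 4.3.3. Alternatives were RLE factors, DESeq2 1.42.0, limma 3.58.1 (voom, and trend on log2 TPM with pseudocounts 1 and 0.1), no filter, a mean of 50 counts, the replicate block, covariates for Y-linked and for white adipocyte expression, the 6 kidneys with Y-linked reads, and leaving out each kidney. A Y-linked factor was added after the data were seen. The script was tested on simulated data. No pair of kidneys within a group was a duplicate (chi-square per degree of freedom of counts 9.06 to 49.5), and pairs across the groups were not compared. The floors (3 counts, 0.275 to 0.295 CPM) cover counting error only, as the libraries carry no molecular identifiers. The edgeR standard errors and the SDs over 4 kidneys include the spread between mice.

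The members and gene lists were chosen with earlier results of these data known. Named with all kidney values were *Insig1*, *Srebf1*, *Srebf2*, *Scap*, *Insig2*, and members with an unadjusted p under 0.05 or no overlap in 8 or 6 kidneys; pathway genes were named at an unadjusted p under 0.05, and *Me1*, *Acss2*, *Smpdl3a*, *Mlxipl* and *Thrsp* for the Y-linked contrast. 4 genes of the pathway lists are counted but not reported here by name. Markers of adipocytes, adrenal cortex, tubule and immune cells were listed in the same way.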

Additional observations from a re-analysis of the deposited data

Results flagged for a closer look

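In 2 of 70 groups of 4 kidneys examined, 1 kidney lay far from the other 3 by Dixon's gap test, where chance gives about 1 in 20, or 3.5 groups. Both were in control 3. *Acaca* was at 51.7 CPM there and at 20.9 to 24.3 CPM in the other controls, a gap of 0.891 of the group's range. *Fasn* was at 285 CPM there and at 86.9 to 97.3 CPM in the other controls, a gap of 0.947 of the range. Without control 3 the log2 fold change was 1.23 for *Acaca* and 1.61 for *Fasn*.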

How the results depend on the processing

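Of 21 genes followed through 20 alternatives, 13 kept their direction in every alternative, and *Insig1* ranged from 0.54 to 0.75 on the log2 scale. The count of members past an FDR of 0.05, 0 in the 8 kidneys, became 1 with DESeq2, 2 with the Y-linked covariate and 2 with the adipocyte covariate, and stayed 0 without each kidney. The count at an unadjusted p under 0.05, 6, became 11 with the Y-linked covariate, 10 in the 6 kidneys, 10 with the adipocyte covariate, 11 with the Y-linked factor, and 2 to 8 without each kidney. It was 3 without control 1, 2 or 4 or mutant 3, and 2 without mutant 2. Members without overlap, 1, became 12 in the 6 kidneys, 2 with RLE factors and 1 to 5 without each kidney (5 without control 3, 4 without mutant 1, 3 without mutant 4). The members' median, 0.08, became 0.22 and 0.23 on log2 TPM with pseudocounts 1 and 0.1, 0.21 with the adipocyte covariate, 0.027 with the Y-linked covariate, 0.040 in the 6 kidneys, 0.030 with the Y-linked factor and 0.02 to 0.16 without each kidney. The median of all genes was 0.088 and 0.11 with the same pseudocounts. The pathway count, 5, became 12 with either TPM pseudocount, 8 with the Y-linked covariate, 10 in the 6 kidneys, 11 with the adipocyte covariate and 3 to 8 without each kidney. The causes of these changes were not tested. At an unadjusted edgeR p under 0.05 the share of all genes was 11.1% in the 6 kidneys, 16.8% with the adipocyte covariate and 12.3% with the Y-linked factor. Shares over all genes were not computed for the TPM fits, RLE factors, the Y-linked covariate, the replicate block or leaving out each kidney. Counts under those settings cannot be set beside such a share.

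Directions reversed for 8 genes. With the Y-linked covariate, the 6 kidneys and the Y-linked factor the log2 fold changes were -0.069, -0.052 and -0.062 for *Scap*, -0.18, -0.16 and -0.17 for *Hmgcs1*, -0.51, -0.45 and -0.46 for *Idi1*, -0.35, -0.33 and -0.34 for *Mvd*, and 1.05, 1.02 and 1.01 for *Elovl6*. *Elovl6* was 0.036 on log2 TPM with pseudocount 0.1. *Dhcr7* was 0.029 and 0.032 with TPM pseudocounts 1 and 0.1 and 0.28 with the adipocyte covariate, under which *Scd1* was -1.32. Without each kidney the ranges were -0.028 to 0.16 for *Srebf2*, -0.32 to 0.50 for *Scd1*, -0.047 to 0.66 for *Idi1* and -0.12 to 0.17 for *Mvd*. The replicate numbers did not pair the samples (correlations of same-numbered deviations -0.29 to 0.05). With the replicate block, 0 members passed the FDR, 7 had an unadjusted p under 0.05 and the median was 0.09.

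With 4 kidneys a group, and only 2 controls with Y-linked reads, differences within the standard errors given were not detectable. Larger ones could be missed too. Over 8 kidneys *Acly*, at 0.50 ± 0.12 (SE), had an edgeR FDR of 0.456, and 0 of 14326 genes passed an edgeR FDR of 0.05. Depth set a floor of 3 counts, or 0.275 to 0.295 CPM, and members had 85 counts or more in each kidney.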
